A study of Mus musculus with 10 samples.

Results

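The genes examined encode the translation initiation factors, the proteins that bring messenger RNA, initiator tRNA and the ribosome together at a start codon. They were taken by symbol: every row of the deposited table whose symbol begins with Eif and a digit from 1 to 6, without the Eif2ak kinases and without pseudogenes. That left 51 genes of the 24839 rows of the table, all 51 of them protein coding under the same symbol in GENCODE release M21. Among them, 44 reached 1 FPKM in every library and 47 had a mean of at least 1 FPKM, the minimum for testing. FPKM are mapped fragments scaled by the length of the transcript and by all fragments of the library, so a value is a share of its library.

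Initiation starts when eIF2, carrying the initiator tRNA, joins the small ribosomal subunit together with eIF1, eIF1A, eIF3 and eIF5. The cap-binding protein eIF4E, the scaffold eIF4G and the helicase eIF4A recruit the messenger RNA, and eIF4E-binding proteins compete with eIF4G for eIF4E. After each round eIF2 is recharged with GTP by eIF2B, a step that phosphorylation of eIF2 blocks under stress. The intestinal epithelium renews itself continuously and secretes and absorbs at a high rate, and both rest on protein synthesis.

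RNA came from small intestinal epithelial cells of mice, and messenger RNA was captured with poly-T beads before sequencing. The libraries form 2 groups of 5, titled NCD and HCD. HCD is the high cellulose diet named in the series title, NCD is not spelled out in the sources used here, and mouse strain, sex, age and genotype are not given. Per the design text, mice ate either diet for 60 days, and allergic groups were then given ovalbumin (OVA, an egg white protein) with an alum adjuvant on days 0 and 14 and again by mouth in 5 doses of 50 mg, the others saline. The treatment label reads untreated for all NCD libraries and OVA treatment for all HCD libraries, so diet and OVA cannot be told apart. The number of each library in the table, 1 to 10 for NCD and 11 to 20 for HCD, goes with the group as well. Nothing in the labels ties each library to an animal of its own, so the p-values below measure the spread between these libraries.

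The 250 bases upstream of each annotated start were searched for CACGTG, the E-box bound by MYC with MAX and by USF and TFE proteins, a palindrome that reads the same on both strands. RefSeq promoters (GRCm38.p6) were matched for 39 of the 51 genes, and 9 of them, 23.1%, held the motif. Among all 7732 tested genes with a promoter the share was 10.2%, and among all 27025 genes with a promoter it was 6.86%. Counted by promoter, it was 6.02% of all 32851. The following 30-base windows, read in the direction of the gene with the motif in capitals, are those of the 8 tested initiation factor genes that hold it. The first 6 genes were lower in HCD as deposited and Eif1b and Eif4g1 were not called in the comparison described further on.
Eif4e, chr3:138527028-138527057, plus strand: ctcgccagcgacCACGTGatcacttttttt
Eif4e, chr3:138527192-138527221, plus strand: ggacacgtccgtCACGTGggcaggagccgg
Eif4a1, chr11:69672595-69672624, minus strand: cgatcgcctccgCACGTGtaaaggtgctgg
Eif4h, chr5:134639488-134639517, minus strand: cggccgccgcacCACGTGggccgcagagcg
Eif5a, chr11:69920791-69920820, minus strand: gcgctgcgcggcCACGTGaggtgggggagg
Eif5a, chr11:69921443-69921472, minus strand: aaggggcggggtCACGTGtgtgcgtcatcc
Eif3f, chr7:108934335-108934364, plus strand: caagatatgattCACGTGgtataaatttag
Eif3k, chr7:28981915-28981944, minus strand: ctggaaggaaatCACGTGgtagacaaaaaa
Eif1b, chr9:120492570-120492599, plus strand: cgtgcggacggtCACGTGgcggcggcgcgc
Eif4g1, chr16:20672661-20672690, plus strand: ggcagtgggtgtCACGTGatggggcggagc

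Of the initiation factor genes that were lower in HCD as deposited, 15 had a promoter and 6 of these, 40.0%, held CACGTG. The share was 9.52%, 2 genes, of the 21 tested initiation factor genes that were not called lower, and 12.3% of the 1547 genes with a promoter that were lower across the table. These sets had 1.40, 1.29 and 1.25 searched promoters per gene in that order, and each further promoter adds sequence to search. The counts are small, rest on the calls as deposited and were not tested. Of the 6 genes, only Eif4e and Eif4a1 also fell after rescaling without the mitochondrially encoded genes. After quantile normalization only Eif4e did. Both scalings are described below. Eif4e carries the motif at 228 and at 64 bases before its start. Eif5a carries it before 2 different annotated starts, and its windows, like those of Eif1b, Eif4e and Eif4g1, lie inside the span that GENCODE gives the gene. The remaining gene with the motif was Eif5a2, which was too low to test. The cyclic AMP response element TGACGTCA and the amino acid response element TGATGCAA (TTGCATCA on the other strand) were in none of the 39 genes, against 3.03% and 0.685% of tested genes with a promoter. A match is a run of letters in a window, and binding was not measured.

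As deposited, messenger RNAs of some, not all, genes of eIF3, eIF2B and the eIF4A helicases with their cofactors fell in HCD. That of eIF4E fell too, and that of an eIF4E-binding inhibitor rose. Fewer genes fell under the other scalings given below, and after quantile normalization no gene of eIF3 or of the eIF4A helicases and cofactors passed. In the comparison of HCD with NCD, 18 of the 47 tested genes fell, 1 rose and 28 did not pass (limma, adjusted p under 0.05 over 10321 tested genes). Over all tested genes, 19.2% fell and 7.13% rose. The 18 genes that fell ranged from -0.42 (Eif4h) to -0.96 (Eif4e) on the log2(FPKM + 1) scale, on which all differences here are HCD minus NCD. They comprised 8 of 14 subunits of eIF3, 4 of 5 genes of the eIF4A helicases and their cofactors, 3 of 5 subunits of eIF2B, and Eif4e, Eif1 and Eif5a. The gene that rose was Eif4ebp3, a gene for an eIF4E-binding inhibitor.

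The sign was negative for 42 of the 47 genes, 89.4%, and for 68.1% of all tested genes. The median difference was -0.40 for the initiation factor genes and -0.19 for all tested genes. In 13 of the 47 every HCD library lay below every NCD library, where 12.9% of all tested genes did so. In 0 of 47 did every HCD library lie above every NCD library, against 4.53% of all tested genes. Together the 51 genes made up 0.596% ± 0.0507 of summed FPKM in NCD and 0.410% ± 0.0226 in HCD (SD, n = 5 each).

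**Figure D1:**
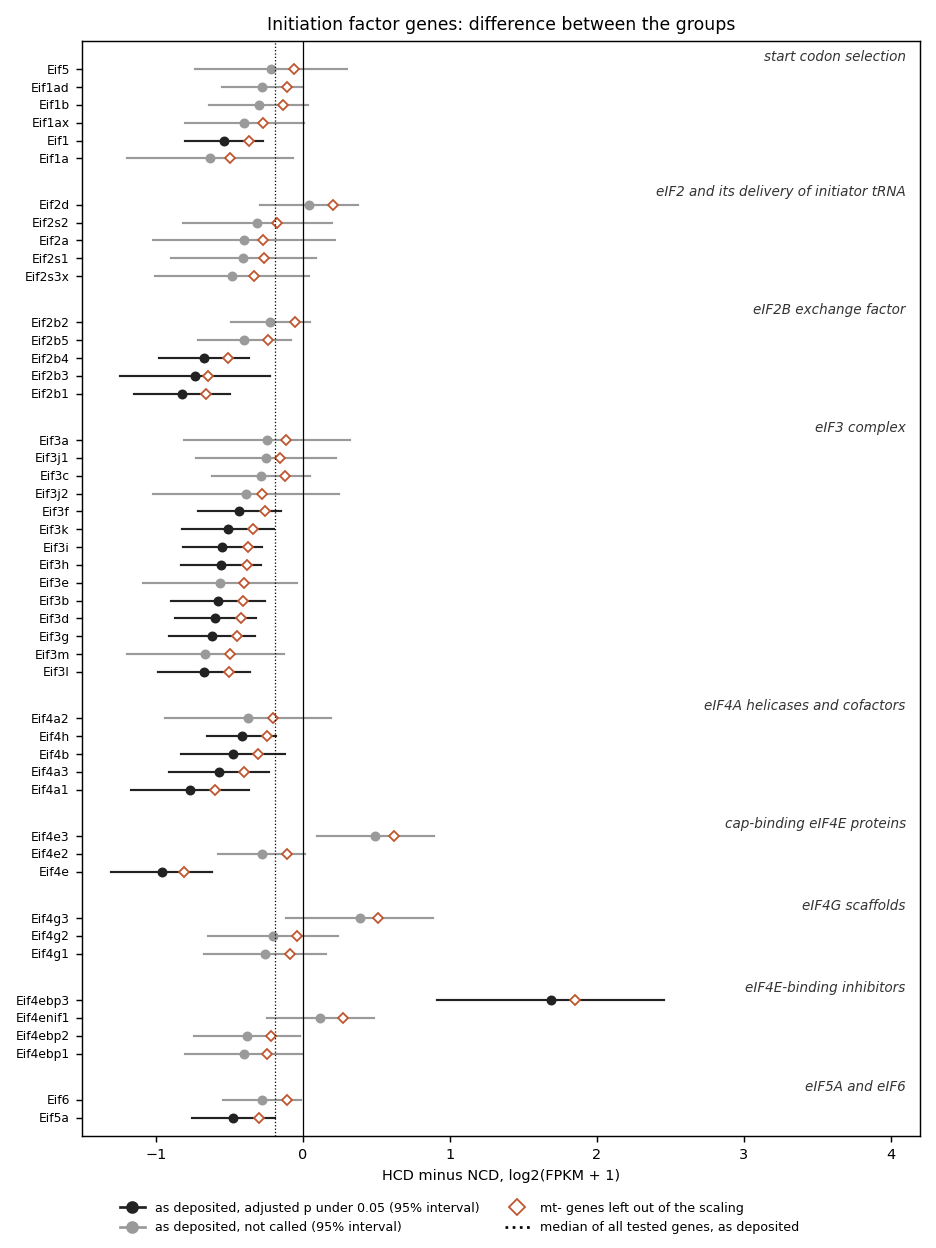
Difference in log2(FPKM + 1), HCD minus NCD, for the 47 tested initiation factor genes grouped by role, with 95% intervals of the limma fit. Black points passed at an adjusted p under 0.05, grey points did not, open diamonds leave the mt- genes out of the scaling, and the dotted line is the median of all tested genes at -0.19. Eif4ebp3 at 1.69 stands to the right of every other gene and Eif4e at -0.96 is the farthest to the left.

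Mitochondrially encoded transcripts took 4.53% ± 1.11 of summed FPKM in NCD and 19.4% ± 5.89 in HCD (SD, n = 5 each). The groups did not overlap, at 3.23% to 5.76% against 14.8% to 29.5%, and the exact two-sided permutation test over every split of the 10 libraries gave 0.00794, its smallest possible p, which adjustment over 3 library measures left at 0.00794. A larger mitochondrial share lowers the FPKM of every other gene, so the table was also rescaled without the mt- genes. This moved the median of all tested genes by 0.14, from -0.19 to -0.05, and that of the initiation factor genes from -0.40 to -0.27. Relative to the median of all genes, the initiation factor genes were at -0.21 as deposited and at -0.22 after rescaling. Rescaling multiplies each library by 1 factor, which makes these values almost equal by construction. After quantile normalization the medians were -0.23 for the initiation factor genes and -0.06 for all tested genes. The share of all 51 in the total without mt- genes was 0.624% ± 0.0490 in NCD and 0.510% ± 0.0367 in HCD (SD, n = 5 each). After rescaling 9 of the 47 fell, with 8.32% of all tested genes falling, and 2 rose, Eif4ebp3 and Eif4e3, with 9.01% rising. Those 9, Eif4e, Eif2b1, Eif4a1, Eif2b4, Eif3l, Eif3g, Eif3d, Eif3h and Eif1, all fell as deposited too. They included 4 of the 14 eIF3 genes, 2 of the 5 eIF2B genes and 1 of the 5 genes of the eIF4A helicases and cofactors. When each library was left out in turn after rescaling, Eif4e and Eif2b1 passed in all 10 fits, Eif1 in 7, Eif3l in 5, Eif4a1 in 4, Eif2b4, Eif3d and Eif3g in 3 and Eif3h in 2. After rescaling every HCD library lay below every NCD library for 4 genes, Eif4e, Eif2b1, Eif4a1 and Eif1, where 5.98% of all tested genes did so. Quantile normalization left 3 that fell, Eif4e, Eif2b1 and Eif2b4, against 8.56% of all tested genes, and the same 2 rose, against 8.99%.

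The RNA of cell type markers differed between the groups as well, in a fit where 19.2% of all tested genes fell and 7.13% rose. Of 16 tested T cell markers 15 rose in HCD, with a summed level of 312 to 996 FPKM in NCD and 2107 to 4082 FPKM in HCD, and all 4 tested red blood cell markers rose, with sums of 15.1 to 41.8 FPKM in NCD and 96.6 to 391 FPKM in HCD. Of 10 epithelial markers, 7 fell (5 after rescaling), among them Epcam and Cdh1, 1 rose, Fabp2, and Alpi and Vil1 did not pass. The sum of the 10 was 10297 to 11336 FPKM in NCD and 8102 to 10689 FPKM in HCD, so the labelled cell type was present in every library. Of 9 tested markers of crypt and dividing cells 4 fell (1 after rescaling), with sums of 81.6 to 199 FPKM in NCD and 59.5 to 78.6 FPKM in HCD. Rises were also seen for 1 of 6 B and plasma cell, 3 of 10 myeloid and 2 of 3 stromal and endothelial markers, while 0 of 5 mast cell markers passed in limma, also at an unadjusted p under 0.05. No marker row stood at 0 in all libraries. The part of these cells in the results below was not tested, and in bulk RNA fewer cells of a type and less RNA per cell cannot be told apart.

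The cap-binding protein eIF4E is the factor that recognises the capped end of messenger RNA. Its gene Eif4e (chr3:138526179-138559696, GRCm38, plus strand), whose promoter holds the pair of E-boxes shown above, had the most negative difference of the 47 on the log2(FPKM + 1) scale, while as a fold of mean FPKM the low gene Eif2b3 differed more, at 2.41 against 2.16. Eif4e stood at 12.1, 7.97, 11.5, 10.3 and 9.06 FPKM in NCD replicates 1 to 5 and 4.11, 5.12, 4.40, 5.40 and 4.53 FPKM in HCD replicates 1 to 5. Every HCD library was below every NCD library, also after rescaling. The mean fell from 10.2 ± 1.71 to 4.71 ± 0.532 FPKM (SD, n = 5 each), a 2.16-fold difference, and the log2 difference was -0.96 (SE 0.16, adjusted p = 0.00114). After rescaling the difference was -0.81 (adjusted p = 0.00445). Relative to the median of all tested genes it was -0.77 as deposited and -0.76 rescaled, values that rescaling by 1 factor per library keeps almost equal. Leaving out any single library kept the adjusted p between 0.00102 and 0.00435.

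The other cap-binding genes did not fall past the threshold. Eif4e2 encodes a cap-binding homologue that represses translation and does not bind eIF4G as eIF4E does. It was the most abundant gene of the family, at 69.6, 52.4, 55.7, 54.8 and 50.9 FPKM in NCD replicates 1 to 5 and 42.1, 41.1, 59.9, 41.9 and 48.5 FPKM in HCD replicates 1 to 5. Its groups overlapped and its difference was -0.28 (SE 0.14, adjusted p = 0.148). Eif4e3, a more divergent cap-binding relative, stood at 2.45, 2.67, 2.19, 1.74 and 2.99 FPKM in NCD replicates 1 to 5 and 2.75, 3.20, 4.75, 4.07 and 4.36 FPKM in HCD replicates 1 to 5. These values overlapped as deposited, with a difference of 0.49 (SE 0.18, adjusted p = 0.0625). After rescaling every HCD library was above every NCD library and Eif4e3 rose, by 0.62 (adjusted p = 0.0323). That call passed in 4 of the 10 rescaled fits that each leave out 1 library, with adjusted p up to 0.0735. Eif4e1b, the oocyte form, was listed at 0 in every library.

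Eif4e2 and Eif4e3 were therefore higher relative to Eif4e in HCD, a comparison within each library that rescaling by 1 factor per library leaves as it is, though quantile normalization can change it, and that was chosen after the values were seen. The ratio Eif4e3/Eif4e ran from 0.169 to 0.336 in NCD and 0.624 to 1.08 in HCD, and Eif4e2/Eif4e from 4.86 to 6.58 in NCD and 7.77 to 13.6 in HCD. Neither ratio overlapped between the groups. Eif4e had the most negative difference of the 47 tested genes, so a ratio to it rises in HCD even for a gene that did not change. How many other genes would separate in this way was not counted. A ratio shows unequal change and does not say which gene of the pair moved.

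The eIF4E-binding proteins hold eIF4E away from eIF4G until the kinase mTORC1 phosphorylates them. Eif4ebp3 was the sole initiation factor gene that rose as deposited and had the widest spread. Eif4ebp3 was at 8.61, 14.9, 5.67, 22.7 and 12.5 FPKM in NCD replicates 1 to 5 and 48.6, 33.8, 62.5, 16.8 and 56.5 FPKM in HCD replicates 1 to 5. The groups overlapped through HCD replicate 4, which lay below NCD replicate 4, while the other 4 HCD libraries were above all NCD libraries. The mean rose from 12.9 ± 6.53 to 43.6 ± 18.4 FPKM (SD, n = 5 each), a 3.39-fold difference, and the log2 difference was 1.69 (SE 0.36, adjusted p = 0.00483), or 1.85 (adjusted p = 0.00315) after rescaling. It passed without any single library, with adjusted p from 0.00145 to 0.0154. In replicates 1 to 3 alone its difference was 2.25 (adjusted p = 0.00490) and in replicates 4 and 5 alone it was 0.84 (adjusted p = 0.421).

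Eif4ebp3 lies on chromosome 18 (chr18:36664060-36665917, plus strand) just after Ankhd1 on the same strand, and GENCODE lists another protein-coding gene across it on that strand, so fragments of a joint transcript would count towards it. Ankhd1 itself was at 6.87 ± 2.60 FPKM in NCD and 7.38 ± 1.14 FPKM in HCD (SD, n = 5 each). Its difference of 0.15 did not pass (adjusted p = 0.661).

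The other binding proteins did not pass. Eif4ebp1 stood at 18.5, 12.1, 12.7, 13.2 and 12.9 FPKM in NCD replicates 1 to 5 and 12.1, 7.33, 8.29, 10.2 and 14.1 FPKM in HCD replicates 1 to 5. Eif4ebp2 stood at 20.8, 25.1, 31.8, 18.5 and 24.9 FPKM in NCD replicates 1 to 5 and 18.8, 18.3, 15.5, 15.1 and 23.8 FPKM in HCD replicates 1 to 5. Both overlapped between the groups, with differences of -0.40 (SE 0.19, adjusted p = 0.126) and -0.38 (SE 0.17, adjusted p = 0.109). Eif4enif1, whose protein carries eIF4E into the nucleus and to processing bodies, had a difference of 0.12 (SE 0.17, adjusted p = 0.640). In NCD the 3 genes Eif4ebp1, Eif4ebp2 and Eif4ebp3 summed to between 3.94 and 6.55 times Eif4e, and in HCD to between 7.80 and 20.8 times, without overlap. For the single genes the ratio to Eif4e was 0.495 to 2.20 in NCD and 3.12 to 14.2 in HCD for Eif4ebp3, 1.11 to 1.52 in NCD and 1.43 to 3.11 in HCD for Eif4ebp1, and 1.71 to 3.16 in NCD and 2.79 to 5.25 in HCD for Eif4ebp2. The first of these did not overlap and the other two did. The sum and the Eif4ebp3 ratio were chosen after the values were seen. The fall of Eif4e, the divisor, raises all of these ratios, and how many other genes would separate was not counted. Messenger RNA does not show how much of each protein is phosphorylated.

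**Figure D2:**
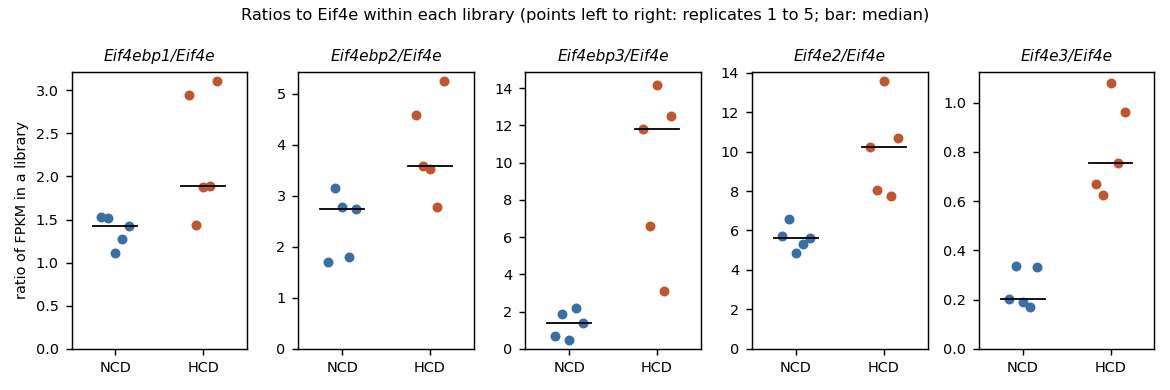
Ratio of the FPKM of 5 genes to that of Eif4e within each library, with NCD and HCD replicates 1 to 5 from left to right and the median as a bar. The ratios of Eif4ebp3, Eif4e2 and Eif4e3 to Eif4e do not overlap between the groups, whereas those of Eif4ebp1 and Eif4ebp2 do. Eif4e itself fell in HCD, which raises every ratio shown.

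The eIF4G scaffolds bridge eIF4E, eIF4A and eIF3. None of the 3 passed in limma, and 0 were under 0.05 unadjusted. Eif4g1 was at 44.3, 41.9, 62.4, 31.4 and 58.7 FPKM in NCD replicates 1 to 5 and 31.8, 48.9, 30.5, 45.7 and 39.5 FPKM in HCD replicates 1 to 5. Eif4g2, a form without the eIF4E-binding region, was at 19.1, 13.8, 24.9, 18.3 and 25.1 FPKM in NCD replicates 1 to 5 and 12.4, 23.2, 12.9, 20.97 and 18.6 FPKM in HCD replicates 1 to 5. Their groups overlapped, as did the ratio Eif4g2/Eif4g1, which ran from 0.329 to 0.582 in NCD and 0.388 to 0.474 in HCD. The 95% intervals of the log2 differences were -0.67 to 0.16 for Eif4g1, -0.64 to 0.24 for Eif4g2 and -0.11 to 0.89 for Eif4g3. A fall as large as that of Eif4e lies outside all 3 intervals.

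The helicase eIF4A unwinds the leader of messenger RNA, and eIF4B and eIF4H stimulate it. Eif4a1 (chr11:69666936-69672423, minus strand), the main form, stood at 213, 128, 209, 115 and 124 FPKM in NCD replicates 1 to 5 and 86.5, 71.4, 103, 90.4 and 96.2 FPKM in HCD replicates 1 to 5. Every HCD library was below every NCD library, and NCD replicates 1 and 3 were far above the other 3. The mean fell from 158 ± 48.95 to 89.4 ± 11.8 FPKM (SD, n = 5 each), with a log2 difference of -0.77 (SE 0.19, adjusted p = 0.00950) and of -0.60 (adjusted p = 0.0379) after rescaling. In replicates 1 to 3 the difference was -1.05 and in replicates 4 and 5 it was -0.35.

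Eif4a2, a close paralogue, stood at 67.9, 32.6, 76.6, 31.9 and 60.5 FPKM in NCD replicates 1 to 5 and 25.1, 53.4, 45.8, 43.7 and 32.4 FPKM in HCD replicates 1 to 5. Its groups overlapped, its difference was -0.37 (SE 0.26, adjusted p = 0.318), and the ratio Eif4a1/Eif4a2 overlapped too, at 2.05 to 3.92 in NCD and 1.34 to 3.44 in HCD. Eif4h was at 111, 110.03, 121, 90.1 and 104 FPKM in NCD replicates 1 to 5 and 76.9, 83.6, 78.97, 77.4 and 81.6 FPKM in HCD replicates 1 to 5. No HCD library of Eif4h reached an NCD library, and its difference was -0.42 (SE 0.11, adjusted p = 0.0140). Eif4b was at 55.3, 38.4, 59.9, 34.96 and 43.3 FPKM in NCD replicates 1 to 5 and 32.5, 41.1, 32.8, 29.7 and 27.6 FPKM in HCD replicates 1 to 5. Its HCD replicate 2 lay within the NCD range, its difference was -0.47 (SE 0.17, adjusted p = 0.0478), and the call was lost without any of NCD replicates 1, 3 and 5 and HCD replicates 1, 3, 4 and 5, with adjusted p up to 0.125. Eif4a3 belongs to the exon junction complex rather than to scanning and was at 122, 86.04, 97.9, 80.95 and 70.9 FPKM in NCD replicates 1 to 5 and 54.6, 47.8, 70.9, 62.9 and 68.6 FPKM in HCD replicates 1 to 5. The groups met at NCD replicate 5 and HCD replicate 3, and the difference was -0.57 (SE 0.16, adjusted p = 0.0185). After rescaling Eif4h, Eif4b and Eif4a3 no longer passed, at -0.25 (adjusted p = 0.173), -0.30 (adjusted p = 0.260) and -0.40 (adjusted p = 0.0748).

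The exchange factor eIF2B has 5 subunits, and all 5 genes had negative differences, as did 68.1% of all tested genes. Eif2b1 (chr5:124570213-124579131, minus strand), the alpha subunit, which takes part in sensing phosphorylated eIF2, stood at 23.02, 19.03, 26.6, 17.2 and 18.2 FPKM in NCD replicates 1 to 5 and 9.25, 12.2, 11.6, 10.8 and 12.4 FPKM in HCD replicates 1 to 5. The groups did not overlap on either scaling. The mean fell from 20.8 ± 3.91 to 11.3 ± 1.28 FPKM (SD, n = 5 each), a 1.85-fold difference, with a log2 difference of -0.82 (SE 0.15, adjusted p = 0.00227) and of -0.66 (adjusted p = 0.0114) after rescaling, and it passed without any single library. Eif2b4, the delta subunit, stood at 24.5, 25.5, 28.5, 20.8 and 25.1 FPKM in NCD replicates 1 to 5 and 18.2, 12.97, 12.9, 14.8 and 17.7 FPKM in HCD replicates 1 to 5. All HCD libraries were below all NCD libraries as deposited and the groups overlapped after rescaling, with differences of -0.67 (SE 0.14, adjusted p = 0.00468) and -0.51 (adjusted p = 0.0420). Eif2b4 overlaps Snx17 on the opposite strand, and the strand setting of the counting is not given in the sources used here.

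Eif2b3, the gamma subunit, was low, at 1.55, 2.03, 2.93, 1.31 and 1.90 FPKM in NCD replicates 1 to 5 and 1.53, 0.927, 1.07, 0.178 and 0.336 FPKM in HCD replicates 1 to 5. HCD replicates 4 and 5 were lowest and HCD replicate 1 lay within the NCD range. Its difference of -0.74 (SE 0.24, adjusted p = 0.0354) passed, but not after rescaling, at -0.64 (adjusted p = 0.0940), nor without any of NCD replicates 1, 2, 3 and 5 or HCD replicates 4 and 5, where the adjusted p reached 0.0963. Eif2b2, the beta subunit and the most abundant of the 5, stood at 31.4, 39.7, 31.6, 32.98 and 34.8 FPKM in NCD replicates 1 to 5 and 31.3, 26.6, 27.9, 34.01 and 26.02 FPKM in HCD replicates 1 to 5. Its difference was -0.22 (SE 0.12, adjusted p = 0.209), with overlapping groups. Eif2b5, the catalytic epsilon subunit, had a difference of -0.40 (SE 0.15, adjusted p = 0.0595) and passed without NCD replicate 4.

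The substrate of eIF2B, the complex eIF2, carries the initiator tRNA. None of its 3 tested subunit genes passed, and neither did Eif2a and Eif2d, which serve other routes of tRNA delivery. In limma 0 of these 5 were under 0.05 unadjusted. Eif2s1, the alpha subunit that stress kinases phosphorylate, Eif2s2 and Eif2s3x had differences of -0.41 (SE 0.23, adjusted p = 0.208), -0.31 (SE 0.24, adjusted p = 0.353) and -0.48 (SE 0.24, adjusted p = 0.157). The 95% intervals of the 3 ran from -1.01 at the lowest to 0.20 at the highest. Eif2s3x stood at 7.64, 4.84, 10.9, 7.44 and 10.9 FPKM in NCD replicates 1 to 5 and 5.12, 9.46, 3.62, 5.18 and 5.20 FPKM in HCD replicates 1 to 5, with HCD replicate 2 well above the other HCD libraries. Its Y-linked copy Eif2s3y was listed at 0 in all 10 libraries, as were 3 other Y-linked genes, Uty, Ddx3y and Kdm5d. Eif2d, the most abundant of the group, was at 17.2, 18.05, 21.4, 13.99 and 17.2 FPKM in NCD replicates 1 to 5 and 17.1, 16.8, 19.3, 23.1 and 14.3 FPKM in HCD replicates 1 to 5. These values overlapped, and the difference of Eif2d was 0.04 (SE 0.16, adjusted p = 0.878). Eif2s1 passed without NCD replicate 2, with an adjusted p of 0.0410.

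The eIF3 complex is the large scaffold on the small ribosomal subunit. All 14 of its genes had negative differences, with a median of -0.55, and 8 fell, namely Eif3b, Eif3d, Eif3f, Eif3g, Eif3h, Eif3i, Eif3k and Eif3l. Eif3l, a peripheral subunit that pairs with eIF3k, stood at 88.3, 61.2, 75.99, 63.5 and 50.4 FPKM in NCD replicates 1 to 5 and 44.1, 40.2, 40.3, 38.02 and 45.3 FPKM in HCD replicates 1 to 5. Eif3d, a subunit with cap-binding activity in human cells, stood at 105, 74.6, 92.3, 74.9 and 83.3 FPKM in NCD replicates 1 to 5 and 61.1, 48.6, 60.7, 54.6 and 56.5 FPKM in HCD replicates 1 to 5. In both genes every HCD library was below every NCD library as deposited. Eif3h stood at 249, 213, 235, 208 and 182 FPKM in NCD replicates 1 to 5 and 167, 122, 162, 142 and 147 FPKM in HCD replicates 1 to 5. Eif3i, a subunit next to eIF3b and eIF3g, stood at 200.00, 168, 172, 180.2 and 152 FPKM in NCD replicates 1 to 5 and 136, 98.8, 106, 123 and 133 FPKM in HCD replicates 1 to 5. Eif3b, the core subunit that binds them, was at 55.2, 38.1, 52.3, 41.2 and 38.6 FPKM in NCD replicates 1 to 5 and 37.6, 26.3, 26.6, 27.98 and 30.3 FPKM in HCD replicates 1 to 5. These 3 genes did not overlap between the groups as deposited either. After rescaling the groups overlapped in all of Eif3l, Eif3d, Eif3h, Eif3i and Eif3b.

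In the other 3 genes the groups overlapped as deposited. Eif3g was at 103, 109, 101, 88.8 and 77.4 FPKM in NCD replicates 1 to 5 and 77.6, 53.1, 61.1, 63.3 and 55.9 FPKM in HCD replicates 1 to 5. Eif3f was at 178, 158, 149, 172 and 126 FPKM in NCD replicates 1 to 5 and 139, 99.3, 113, 108 and 119 FPKM in HCD replicates 1 to 5. Eif3k, the most abundant eIF3 gene, was at 292, 278, 211, 266 and 201 FPKM in NCD replicates 1 to 5 and 213, 142, 184, 157 and 177 FPKM in HCD replicates 1 to 5. In each of them HCD replicate 1 was the highest of its group and lay above NCD replicate 5. The differences were -0.67 (SE 0.15, adjusted p = 0.00540) for Eif3l, -0.62 (SE 0.14, adjusted p = 0.00569) for Eif3g and -0.59 (SE 0.13, adjusted p = 0.00486) for Eif3d. They were -0.58 (SE 0.15, adjusted p = 0.0123) for Eif3b, -0.55 (SE 0.13, adjusted p = 0.00701) for Eif3h and -0.55 (SE 0.13, adjusted p = 0.00735) for Eif3i. Eif3k and Eif3f were smaller, at -0.51 (SE 0.15, adjusted p = 0.0210) and -0.43 (SE 0.13, adjusted p = 0.0267).

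After rescaling 4 of the 8 still fell: Eif3l at -0.50 (adjusted p = 0.0320), Eif3d at -0.42 (adjusted p = 0.0362), Eif3g at -0.45 (adjusted p = 0.0411) and Eif3h at -0.38 (adjusted p = 0.0454). Eif3i and Eif3b, at -0.38 (adjusted p = 0.0578) and -0.41 (adjusted p = 0.0943), did not pass, nor did Eif3k and Eif3f. The call of Eif3f was lost without any of NCD replicates 1 and 4 and HCD replicates 2, 3 and 4, with adjusted p up to 0.0705, and that of Eif3k without NCD replicate 1, at 0.0585. Of the 6 eIF3 genes that did not pass, Eif3m and Eif3e had differences as large as the genes that fell, -0.66 (SE 0.25, adjusted p = 0.0637) and -0.56 (SE 0.24, adjusted p = 0.102), with larger errors, and both passed without NCD replicate 2. Eif3a, Eif3c, Eif3j1 and Eif3j2 had differences between -0.39 and -0.24. Eif3j1 and Eif3j2 are near copies whose fragments could be divided between them, as are Eif1a and Eif1ax.

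**Figure D3:**
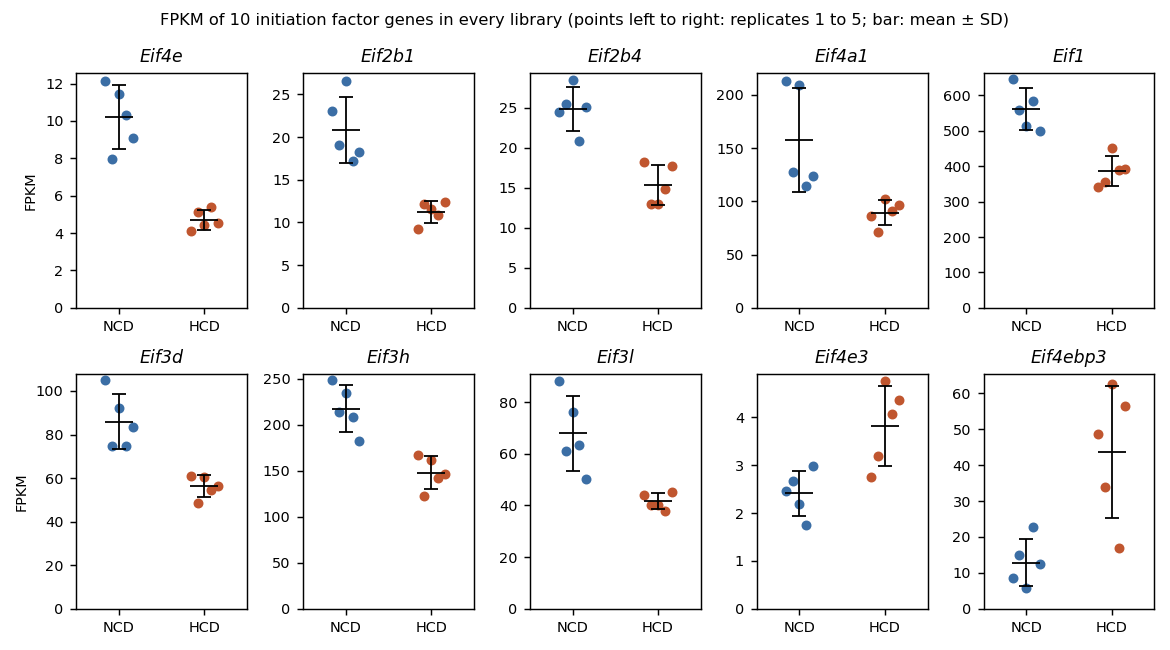
FPKM of 10 initiation factor genes in every library, replicates 1 to 5 from left to right within NCD and HCD, with mean and SD as bars on axes that start at 0. As deposited, the HCD libraries lie below all NCD libraries in 8 of the panels, which were picked for display, and in 12.9% of all tested genes. Eif4e3 and Eif4ebp3 have higher means in HCD with overlapping groups.

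Start codon selection is the work of eIF1 and eIF1A, which keep the ribosome scanning, of the GTPase activator eIF5 and of eIF5B, which joins the large subunit. Eif1 (chr11:100319885-100322096, plus strand) was the most abundant of all 51 genes and stood at 648, 559, 514, 584 and 501 FPKM in NCD replicates 1 to 5 and 342, 356, 452, 390.4 and 393 FPKM in HCD replicates 1 to 5. No HCD library reached an NCD library, on either scaling. The mean fell from 561 ± 58.8 to 387 ± 42.5 FPKM (SD, n = 5 each), with a log2 difference of -0.54 (SE 0.12, adjusted p = 0.00747) and of -0.36 (adjusted p = 0.0263) after rescaling, and the call held without any single library as deposited. Its close relative Eif1b, with an E-box 24 bases before its start, stood at 35.03, 21.4, 20.4, 28.7 and 22.1 FPKM in NCD replicates 1 to 5 and 21.3, 17.7, 20.2, 21.5 and 19.99 FPKM in HCD replicates 1 to 5. Those groups overlapped, with a difference of -0.30 (SE 0.16, adjusted p = 0.171), and the ratio Eif1/Eif1b overlapped as well, at 18.5 to 26.1 in NCD and 16.1 to 22.4 in HCD.

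Eif1a had a difference of -0.63 (SE 0.26, adjusted p = 0.0899) and, of the 10 fits that each leave out 1 library, passed in the one without NCD replicate 2, at an adjusted p of 0.0344. Eif1ax, Eif1ad and Eif5 had differences of -0.40 (SE 0.19, adjusted p = 0.133), -0.28 (SE 0.13, adjusted p = 0.129) and -0.22 (SE 0.24, adjusted p = 0.538). Eif5b had a mean of 0.911 FPKM and was not tested, with 0.441 to 1.46 FPKM in NCD and 0.436 to 1.17 FPKM in HCD.

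The factor eIF5A carries the modified residue hypusine and helps the ribosome through difficult sequences, and eIF6 keeps the ribosomal subunits apart. Eif5a, with E-boxes before a pair of its starts, stood at 501, 463, 506, 424 and 421 FPKM in NCD replicates 1 to 5 and 376, 286, 279, 366 and 369 FPKM in HCD replicates 1 to 5. All HCD libraries were below all NCD libraries, the mean fell from 463 ± 40.7 to 335 ± 48.5 FPKM (SD, n = 5 each) and the log2 difference was -0.47 (SE 0.13, adjusted p = 0.0176). After rescaling it was -0.30 (adjusted p = 0.150) and did not pass. Its paralogue Eif5a2 had a mean of 0.0284 FPKM and was not tested. Eif6 had a difference of -0.28 (SE 0.12, adjusted p = 0.114) with overlapping groups.

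Levels of the 47 tested genes ranged from 1.23 FPKM (Eif3j1) to 474 FPKM (Eif1) as means over the 10 libraries. After Eif1 came Eif5a, Eif6, Eif3k and Eif3h, with means of 399, 273, 212 and 183 FPKM. In NCD Eif5a was at 463 ± 40.7 and Eif6 at 299 ± 32.5, so these neighbours were separated beyond their SD, whereas Eif3k at 249.6 ± 40.9 and Eif3h at 217 ± 25.7 were not (SD, n = 5 each). Subunits of eIF3, which stand together in the complex, spanned 1.23 FPKM for Eif3j1 to 212 FPKM for Eif3k although FPKM is scaled to length. Level and the length of the longest coding transcript had a Spearman's rho of -0.73 over the 14 eIF3 genes, -0.59 over the 47 and -0.39 over 9694 other tested genes. The points share the same 10 libraries and the same selection by poly-T beads, and these values are descriptions.

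Some initiation factor genes varied together among the libraries of a group, and others varied oppositely. The deviations of all other tested genes from their group means were reduced to 1 axis, the leading principal component, which held 26.7% of their variance. NCD replicates 1 to 5 scored 0.03, -0.42, 0.41, -0.29 and 0.26 on it and HCD replicates 1 to 5 scored -0.44, 0.47, -0.25, 0.16 and 0.05. Over the deviations of all 10 libraries, 11 of the 47 genes had a Pearson's r above 0.6 with the axis, 23.4%, among them Eif3a, Eif4g2, Eif1a, Eif5 and Eif4g1. A further 10 genes had r below -0.6, 21.3%, among them Eif3k, Eif1ad, Eif3f, Eif3g and Eif3h. Of the other tested genes 17.5% and 13.7% passed these limits. Thus Eif3a, at 0.93, and Eif3k, at -0.92, which belong to 1 complex, stood at opposite ends.

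**Figure D4:**
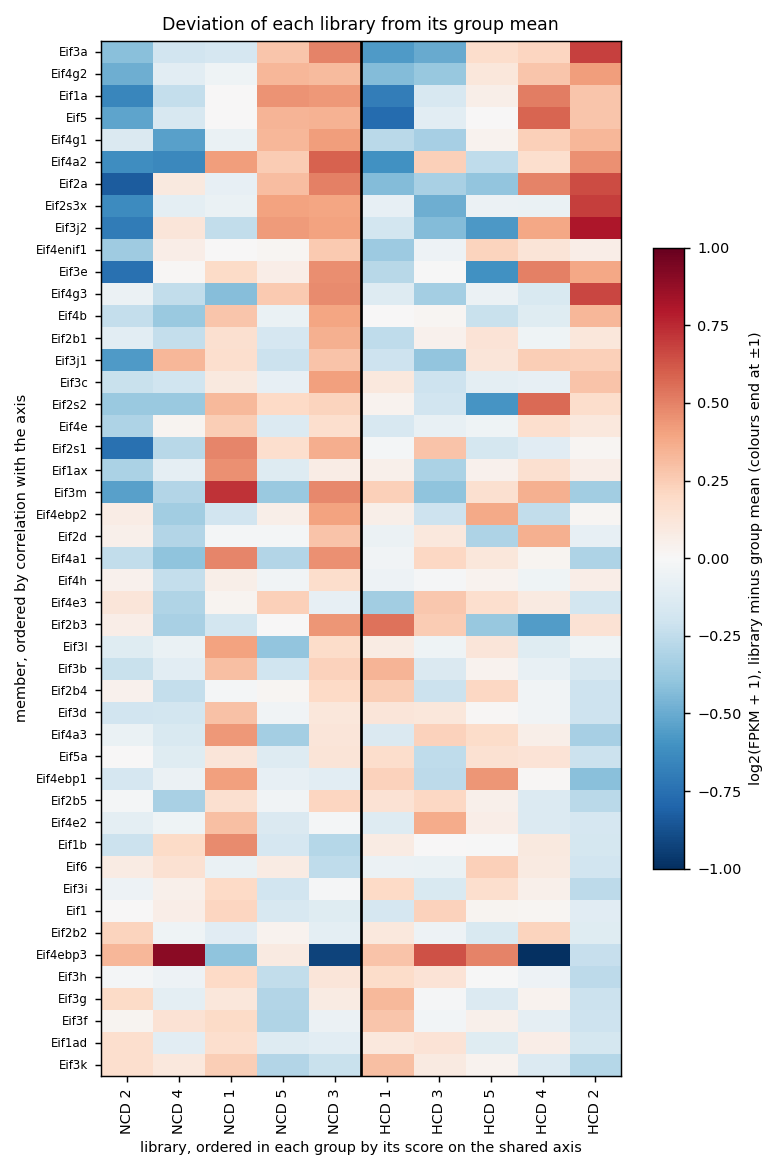
Deviation of log2(FPKM + 1) from the group mean for the 47 tested genes (rows, ordered by their correlation with the axis) in the 10 libraries (columns, ordered within NCD and HCD by their score). Genes at the top run from blue to red across each group and those at the bottom from red to blue, and colours end at ±1, which Eif4ebp3 passes.

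The 11 genes with r above 0.6 had a median length of 3647 bases and a median GC content of 43.2%, and the 10 with r below -0.6 had 1308.5 bases and 53.2%. Over the 47 genes, Spearman's rho of r with length was 0.65 and with GC content -0.61. Over 9694 other tested genes the values were 0.50 and -0.47, of the same sign as over the initiation factor genes. The genes that fell in HCD had a median residual SD of 0.21 on the log2 scale, those that did not pass 0.31 and all tested genes 0.29. The call weighs each difference against an error built from this SD, so a lower SD among called genes follows in part from the calling. Differences of about the same size were thus called in steady genes such as Eif3b and not in variable genes such as Eif3m. What the axis reflects was not tested.

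**Figure D5:**
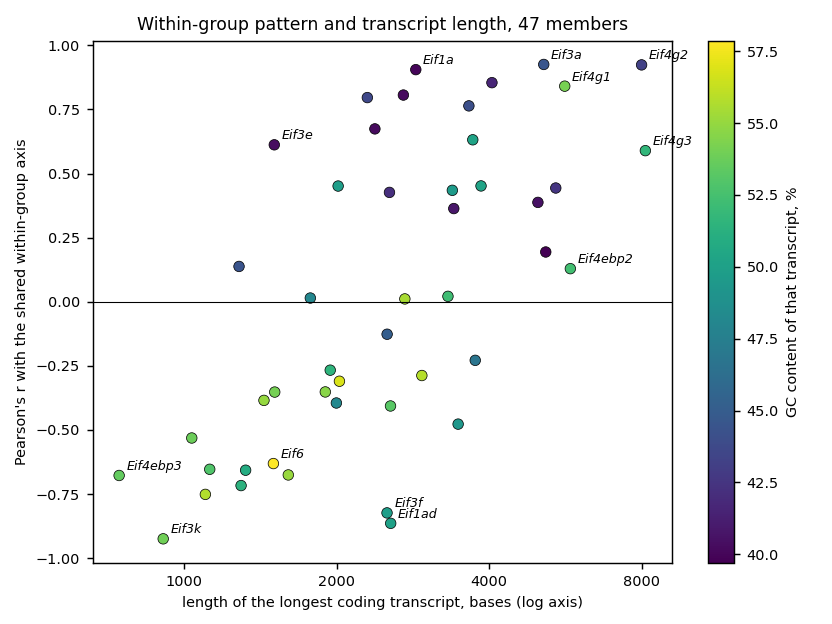
Pearson's r of each of the 47 tested genes with the within-group axis against the length of its longest coding transcript in bases on a log axis, coloured by GC content. Short transcripts such as Eif3k and Eif4ebp3 lie at negative r and long ones such as Eif4g2 and Eif3a at positive r.

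Genes that act on the initiation factors or on the next steps of translation were counted in the same fit. Over all tested genes, 19.2% fell and 7.13% rose as deposited, and 8.32% fell and 9.01% rose after rescaling. Of 5 tested genes for eIF2 kinases, eIF2 phosphatase subunits and Atf4, 2 fell and 0 rose. Atf4, the transcription factor whose translation increases when eIF2 is phosphorylated, stood at 519, 416, 424, 338 and 358 FPKM in NCD replicates 1 to 5 and 193, 199, 259.8, 228 and 244 FPKM in HCD replicates 1 to 5. The groups did not overlap and the difference was -0.86 (SE 0.14, adjusted p = 0.00109), or -0.69 (adjusted p = 0.00251) after rescaling. Ppp1r15b, a phosphatase subunit that removes the phosphate from eIF2, had a difference of -0.69 (SE 0.18, adjusted p = 0.0142) and of -0.52 (adjusted p = 0.0736) after rescaling. The haem-regulated kinase gene Eif2ak1 did not pass, at -0.33 (SE 0.13, adjusted p = 0.0873).

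Of 16 tested genes of mTORC1 and of kinases that act on initiation factors, 2 fell and 0 rose, beside 19.2% and 7.13% of all tested genes. These were Akt1s1, an mTORC1 inhibitor subunit, at -0.46 (SE 0.13, adjusted p = 0.0170), and Rheb, the GTPase that activates mTORC1, at -0.72 (SE 0.20, adjusted p = 0.0194), and neither passed after rescaling. Mlst8 had a difference of -0.40 (SE 0.15, adjusted p = 0.0565). Of 7 genes for poly(A)-binding proteins and partners 1 fell, Pabpc4, at -0.70 (SE 0.16, adjusted p = 0.00653), and Pabpn1 and Paip2 did not pass. Of 10 cofactors with other symbols, 0 passed in limma, and 2 were under 0.05 unadjusted. The 3 with the smallest p were Mcts2, at -0.65 (SE 0.23, adjusted p = 0.0534), Lsm12, at -0.54 (SE 0.20, adjusted p = 0.0578), and Mcts1, at -0.55 (SE 0.26, adjusted p = 0.135). Mcts2 is a retrocopy of Mcts1, so fragments could be divided between them.

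Of 9 tested genes listed with the elongation and release factors, 5 fell and 0 rose, beside 19.2% and 7.13% of all tested genes. After rescaling 3 fell and 1, Eef2k, rose, beside 8.32% and 9.01%. Eef1b2, an exchange factor for eEF1A, stood at 361, 242, 274, 244 and 189 FPKM in NCD replicates 1 to 5 and 148, 94.03, 137, 127 and 130.3 FPKM in HCD replicates 1 to 5. The HCD libraries lay below all NCD libraries, with a difference of -1.02 (SE 0.17, adjusted p = 0.00118) and of -0.85 (adjusted p = 0.00302) after rescaling. Its partner Eef1g had a difference of -0.72 (SE 0.15, adjusted p = 0.00447) and Eef1e1 one of -1.04 (SE 0.23, adjusted p = 0.00618). Of 6 mitochondrial initiation and elongation factor genes 2 fell, Tufm at -0.60 (SE 0.11, adjusted p = 0.00188) and Tsfm at -0.80 (SE 0.17, adjusted p = 0.00406), and both passed after rescaling, while Gfm1, a mitochondrial elongation factor, did not pass at -0.67 (SE 0.25, adjusted p = 0.0572). The medians were -0.56 for the elongation list, -0.50 for the mitochondrial list and -0.40 for the initiation factors, beside -0.19 for all tested genes.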

How the data were processed

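RNA-seq of 5 NCD and 5 HCD libraries was used as deposited by the authors, in FPKM per gene. The submitters' processing notes name HISAT2, StringTie and tools for counts, with the build GRCm38. Versions, annotation, filters and the strand setting are left unstated there. Every value column was used. Read totals are not given and were not recoverable: the best step explained 27.1% to 34.3% of low values as whole multiples with a tolerance of 0.1, and chance gives 20%. The depth and counting error of each library are therefore unknown. Summed FPKM ran from 539751 to 634279 per library.

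Groups follow the titles. Genes averaging 1 FPKM or more were fitted as log2(FPKM + 1), which understates changes of low genes, with limma 3.58.1 in R 4.3.3 (lmFit, eBayes with a trend, two-sided, Benjamini-Hochberg over all tested genes, threshold 0.05). The fit was run on simulated data with noise drawn independently for each gene. These lacked the axis shared by libraries and the shift in mitochondrial share, so that run does not cover either. Means carry the SD over 5 libraries, and folds divide the group means of FPKM. The share of mt- genes was compared with an exact permutation test. Alternatives were rescaling without the mt- genes, quantile normalization, TPM, a pseudocount of 0.1, no filter or a minimum of 5 FPKM, no variance trend, a replicate block, leaving out each library, and replicates 1 to 3 or 4 and 5 alone. Coordinates are GRCm38 from GENCODE release M21, and promoter windows come from RefSeq on GRCm38.p6.

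The genes, roles, pathway lists and marker lists were chosen with earlier results of these data known. Every gene of the family is accounted for. Library values are given for each that passed, for the most abundant of each role and for both genes of the ratios named for description, Eif4ebp1/Eif4e, Eif4ebp2/Eif4e, Eif4a1/Eif4a2, Eif1/Eif1b, Eif2s3x/Eif2s3y and Eif4g2/Eif4g1. Of each pathway list, up to 3 genes with the smallest p are named. Others named are given for a role or a call under an alternative.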

Additional observations from a re-analysis of the deposited data

Results flagged for a closer look

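In 5 of the 94 groups of 5 libraries, 2 for each tested initiation factor gene, 1 library lay far from the other 4. Chance flags about 1 group in 20, which is 4.7 of 94. Eif2s3x and Eif4g3 were both high in HCD replicate 2, at 9.46 FPKM against 3.62 to 5.20 in the other HCD libraries and at 5.42 FPKM against 2.20 to 2.88. Eif4e2 and Eif4ebp1 were both high in NCD replicate 1, at 69.6 FPKM against 50.9 to 55.7 in the other NCD libraries and at 18.5 FPKM against 12.1 to 13.2. Eif1ax was low in HCD replicate 3, at 1.63 FPKM against 2.38 to 2.65. None of these 5 genes passed in the comparison of the groups as deposited.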

How the results depend on the processing

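The counts moved with the scaling. As deposited 18 initiation factor genes fell and 1 rose, beside 1982 and 736 of all tested genes, with a median of -0.40. Without the mt- genes 9 fell and 2 rose, beside 860 and 931, with a median of -0.27, and after quantile normalization 3 fell and 2 rose, beside 883 and 928, with a median of -0.23. Without a variance trend 2 rose, and with a minimum of 5 FPKM 433 genes of the table rose. Replicates 1 to 3 alone gave 11 that fell, beside 1010 lower and 413 higher genes. Replicates 4 and 5 alone gave 0 in either direction in limma over 46 tested, beside 14 lower and 53 higher genes, a median of -0.25, and 7 lower and 0 higher at an unadjusted p under 0.05. Of the 18 genes, 17 were tested and lower there, and 18 were lower in replicates 1 to 3. The fits that each leave out 1 library gave 14 to 21 that fell and 1 to 2 that rose, with medians of -0.48 to -0.37, beside 1318 to 2038 lower and 556 to 790 higher genes. Together with rescaling they gave 2 to 12 that fell, with 2 left without NCD replicate 1, HCD replicate 2 or HCD replicate 4, and 1 to 2 that rose, with medians of -0.32 to -0.19, beside 436 to 934 lower and 663 to 928 higher genes. Replicate numbers did not pair the libraries: deviations of same-numbered libraries had correlations of 0.22, -0.24, -0.20, 0.01 and 0.10. The replicate block gave 17 that fell and 1 that rose, and the block with rescaling gave 6 and 1, with 674 lower genes and a median of -0.27. Eif4e, Eif2b1 and Eif4ebp3 passed without any single library on both scalings. Of 1446 pairs of gene and alternative, 19 changed sign, in 6 genes that passed in neither, and 0 did so in genes that passed. Depth is unknown, so no counting error can be given, for low genes such as Eif2b3 either. The cause of these changes was not tested.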
